A study of Mus musculus with 31 samples.

Results

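The 10 genes described here encode C-type lectin receptors of myeloid cells: Clec4a1, Clec4a2, Clec4a3, Clec4d, Clec4e, Clec4n, Clec5a, Clec7a, Clec10a and Clec12a. They were taken by symbol from the deposited count table, where all 10 were found among 24411 entries, and all 10 passed the filter on low counts with 12337 genes in all. Their levels were read in RNA-seq libraries of Ly6C-high monocytes from C57BL/6J mice, with 3 libraries in each of 3 groups. Healthy blood came from healthy mice, LLC blood from mice with subcutaneous LLC tumors (Lewis lung carcinoma, a mouse tumor line grown in syngeneic hosts), and LLC tumor from the tumors themselves. Cells of every group had been sorted as CD11b+, Ly6G-, Ly6C-high and MHC-II-. The labels give no age, sex or sequencing batch, do not say how many mice stand behind a library and name no shared mouse between blood and tumor, so p-values measure the spread between these libraries.

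C-type lectin receptors sit on the cell surface and bind sugars and lipids of microbes and of damaged cells. The activating receptors Clec4e (Mincle), Clec4d (MCL) and Clec4n (Dectin-2) signal through the FcRγ adaptor encoded by Fcer1g, Clec5a (MDL-1) through the DAP12 adaptor encoded by Tyrobp, and Clec7a (Dectin-1, the β-glucan receptor) through a tyrosine motif of its own. These routes meet at the kinase Syk and the scaffold Card9, which lead to NF-κB and cytokine genes. Clec4a2 (DCIR) and Clec12a (MICL) carry an inhibitory motif that recruits the phosphatases SHP-1 and SHP-2, encoded by Ptpn6 and Ptpn11. Clec10a (MGL1, CD301a) is an endocytic receptor for galactose-type sugars, known from macrophages and dendritic cells.

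The genes split in the tumor. Clec4d, Clec4n, Clec4e and Clec5a were 5.58- to 39.4-fold higher in LLC tumor than in LLC blood, while Clec4a1, Clec4a3, Clec10a and Clec12a were 2.00- to 4.08-fold lower. Clec4a2 was 1.63-fold higher and Clec7a did not pass the test. Thus 9 of the 10 were called in this comparison, where 61.3% of all tested genes were. Between healthy blood and LLC blood most shifts were smaller, and 2 of the 10, Clec12a and Clec10a, were called, both lower in LLC blood, where 23.6% of all tested genes were called.

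Of the 10 genes, 9 lie on mouse chromosome 6 and Clec10a lies on chromosome 11 (70166623 to 70170836), by RefSeq gene positions in GRCm38.p6, the assembly called mm10 in the submitters' processing notes. Clec4a1 (122921848 to 122934619), Clec4a3 (122952515 to 122969878), Clec4a2 (123122690 to 123143999), Clec4n (123229843 to 123247024), Clec4d (123262107 to 123275268) and Clec4e (123281789 to 123289871) follow each other within 368 kb. Clec12a (129349783 to 129365303) and Clec7a (129461591 to 129472785) bound a second stretch of 123 kb, and Clec5a (40574898 to 40585805) lies apart.

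RefSeq promoter windows were at hand for 8 of the 10 genes, and Clec4n and Clec10a had no entry. The 250 bases before the annotated start are shown for the 3 genes with a window among those that rose most in the tumor and, for contrast, for Clec12a, which fell most. Each is written 5′ to 3′ on the gene's strand, with capitals marking matches to the 5 patterns TTNNGNAA (C/EBP), TGANTCA (AP-1), GAGGAAGT (PU.1), ACGTG (HIF) and the NF-κB consensus site of the immunoglobulin κ enhancer, on either strand. The windows are chr6:123261857-123262106 (plus strand) for Clec4d, chr6:123289872-123290121 (minus) for Clec4e, chr6:40585806-40586055 (minus) for Clec5a and chr6:129349994-129350243 (plus) for Clec12a, whose RefSeq start for this window lies inside the gene's span.
Clec4d: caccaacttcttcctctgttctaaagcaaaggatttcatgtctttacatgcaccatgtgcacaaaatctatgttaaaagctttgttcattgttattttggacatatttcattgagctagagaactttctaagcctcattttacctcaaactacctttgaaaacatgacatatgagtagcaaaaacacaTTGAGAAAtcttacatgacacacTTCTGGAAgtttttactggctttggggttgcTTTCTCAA
Clec4e: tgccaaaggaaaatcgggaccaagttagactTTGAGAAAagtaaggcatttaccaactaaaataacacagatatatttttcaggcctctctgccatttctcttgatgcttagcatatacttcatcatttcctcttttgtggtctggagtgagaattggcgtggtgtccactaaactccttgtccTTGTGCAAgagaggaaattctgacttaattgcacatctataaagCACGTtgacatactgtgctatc
Clec5a: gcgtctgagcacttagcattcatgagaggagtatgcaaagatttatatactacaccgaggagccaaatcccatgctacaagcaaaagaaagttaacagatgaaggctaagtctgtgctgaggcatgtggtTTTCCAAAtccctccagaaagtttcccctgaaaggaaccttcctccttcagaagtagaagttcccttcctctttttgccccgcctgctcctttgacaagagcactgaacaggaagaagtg
Clec12a: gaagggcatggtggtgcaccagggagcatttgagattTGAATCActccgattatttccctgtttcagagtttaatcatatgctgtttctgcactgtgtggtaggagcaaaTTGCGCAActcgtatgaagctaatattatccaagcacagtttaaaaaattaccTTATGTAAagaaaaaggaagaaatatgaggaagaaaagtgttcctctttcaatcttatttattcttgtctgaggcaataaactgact

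All of the capitals in the Clec4d and Clec5a windows are TTNNGNAA matches, 3 in Clec4d and 1 in Clec5a. The Clec4e window holds 2 such matches and 1 ACGTG match on the minus strand, 22 to 18 bases before the start. The Clec12a window holds 2 TTNNGNAA positions, one of them the palindrome TTGCGCAA, and 1 TGANTCA match. TTNNGNAA was found in 5 of the 10 windows of these genes (1 each for these 4 and Clec4a2), against 36.8% of all 32817 promoter windows of that length. TGANTCA was found in 6.75% and ACGTG in 16.6% of all windows, and in 1 window each of these genes. GAGGAAGT (2.44% of all windows) and the NF-κB consensus (0.140%) were in none of the 10 windows of these genes. A looser NF-κB pattern, GGG and CC with any 5 bases between them, includes that consensus and is not marked in capitals. It was in 45.8% of all windows and, among these genes, in that of Clec4a1. The matches are a description of letters, and genes that rose and genes that fell both held TTNNGNAA.

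Levels are CPM, the counts of a gene scaled to a common library total over all genes, and log2 fold changes, their standard errors (SE) and p-values come from edgeR's quasi-likelihood test on all 9 libraries, adjusted by Benjamini-Hochberg over the 12337 genes. The threshold for a call was 0.05. Total counts ranged from 10457478 to 20706410 per library. Levels of different genes are not ranked, since no transcript lengths were used.

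The summed level of 12 monocyte markers was 42254 to 45756 CPM in healthy blood, 33307 to 37925 in LLC blood and 24452 to 28655 in LLC tumor. Monocyte genes were thus abundant in every library, but not at equal levels. In tumor against LLC blood 3 of the 12 were called higher and 7 lower, Ly6c2 among the lower ones (means of 1153 and 358 CPM). In LLC blood against healthy blood 1 was called higher and 1 lower. LLC tumor 1 stood apart: it was the highest of the tumor libraries for 9 of the 10 receptor genes, its scaling factor was 0.834 against 1.02 and 0.987, and its fibroblast markers summed to 853 CPM against 3295 and 3689. LLC blood 1 carried 406 CPM of fibroblast markers, against 1.25 and 1.59 in the other LLC blood libraries. Results that turn on one library are given with and without it.

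Clec4d, whose product pairs with Mincle, stood at 23.7, 28.8 and 19.9 CPM in healthy blood, at 15.1, 16.1 and 15.2 CPM in LLC blood and at 663, 441 and 448 CPM in LLC tumor. Every tumor library exceeded every blood library by far. Tumor against LLC blood gave a log2 fold change of 5.30 ± 0.28 SE (39.4-fold, adjusted p = 5.85e-07), which ranked 511 from the top among the 12337 genes.

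Clec4n, which encodes the α-mannan receptor Dectin-2, showed nearly the same course. It stood at 13.9, 11.7 and 14.0 CPM in healthy blood, at 8.80, 11.4 and 9.90 CPM in LLC blood and at 426, 278 and 281 CPM in LLC tumor. Tumor against LLC blood gave 5.26 ± 0.28 SE on the log2 scale (38.4-fold, adjusted p = 5.91e-07), ranked 517. The ratio of Clec4n to Clec4d counts was 0.643, 0.629 and 0.628 in the 3 tumor libraries and 0.408 to 0.708 in blood, so the pair kept a narrow ratio within the tumor while both levels differed between tumor libraries.

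Clec4e, the receptor for mycobacterial cord factor and for the nuclear protein SAP130 released by dying cells, was at 67.3, 75.2 and 56.8 CPM in healthy blood, at 75.4, 109 and 107 CPM in LLC blood and at 697, 468 and 543 CPM in tumor. Of the 3 FcRγ-coupled receptors it alone had a higher mean in LLC blood than in healthy blood. The CPM of the 2 groups barely separated, with 75.4 in LLC blood 1 against 75.2 in healthy blood 2. CPM do not include the scaling factors of the test. That step, at 0.52 ± 0.23 SE on the log2 scale, missed the threshold (adjusted p = 0.138). From LLC blood to tumor it rose by 2.78 ± 0.25 SE (6.86-fold, adjusted p = 1.22e-05). The ratio of Clec4e to Clec4d counts was 2.62 to 2.85 in healthy blood, 4.99 to 7.08 in LLC blood and 1.05 to 1.21 in LLC tumor, 3 ranges that do not overlap.

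Clec5a was at 33.5, 42.2 and 43.2 CPM in healthy blood, at 45.3, 59.4 and 52.1 CPM in LLC blood and at 325, 210.2 and 207 CPM in tumor. Its levels in LLC blood lay above those in healthy blood without overlap, by a log2 difference that missed the threshold (0.37 ± 0.25 SE, adjusted p = 0.311). The tumor libraries lay well above both, at 2.48 ± 0.26 SE over LLC blood (5.58-fold, adjusted p = 3.03e-05).

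Clec7a did not follow the other activating receptors. It was at 517, 530.5 and 634 CPM in healthy blood, at 442, 407 and 389 CPM in LLC blood and at 633, 336 and 354 CPM in LLC tumor, so tumor 1 matched the highest healthy library and the other tumor libraries lay below every blood library. On the log2 scale tumor differed from LLC blood by 0.35 ± 0.28 SE (adjusted p = 0.312) and from healthy blood by -0.12 ± 0.28 SE (adjusted p = 0.723). Without LLC tumor 1 these were -0.13 (adjusted p = 0.274) and -0.65 (adjusted p = 0.000342), and the second was then called lower. Limma-voom with sample quality weights, on all 9 libraries, gave -0.06 and -0.54, the second called lower. The direction against healthy blood turned without LLC tumor 2 (0.10) and without LLC tumor 3 (0.06), so no direction is stated for Clec7a in the tumor.

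**Figure D1:**
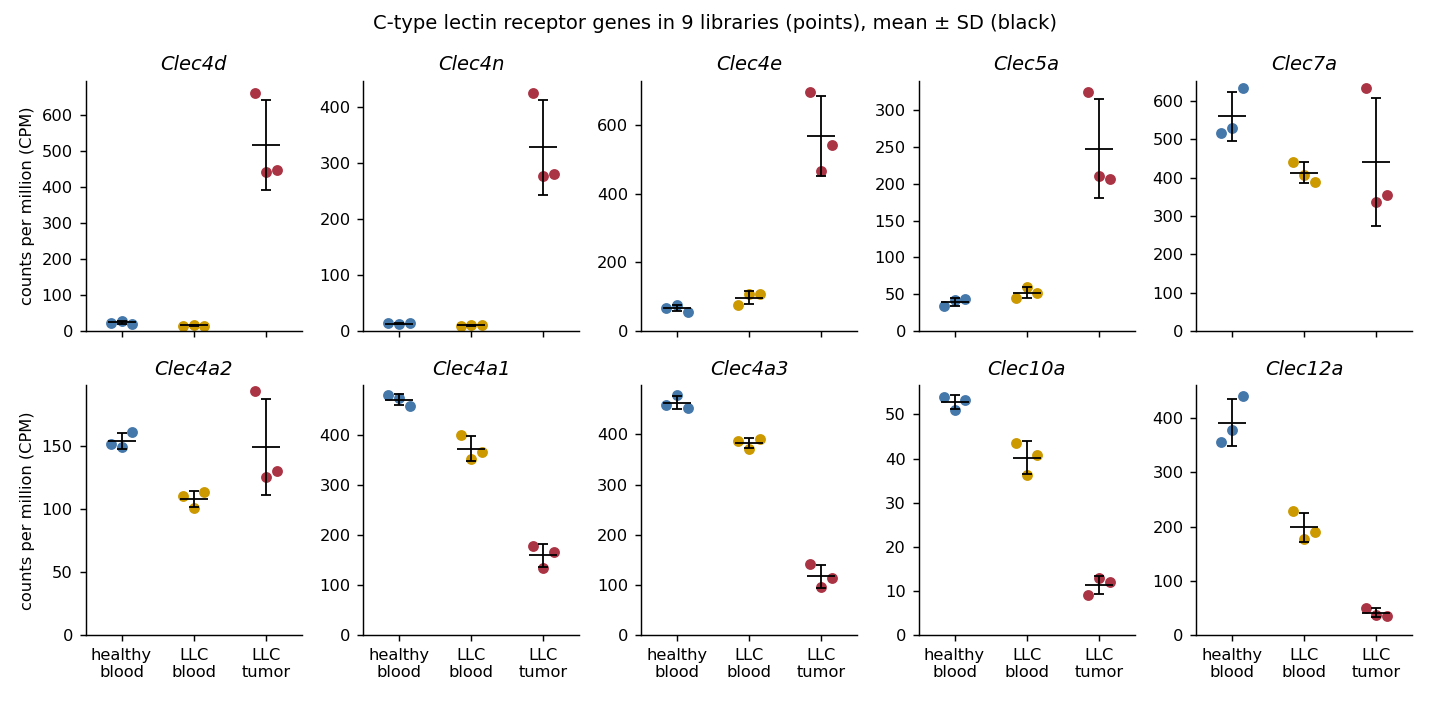
CPM of the 10 genes (y axis, one scale per panel, starting at 0) in the libraries of healthy blood, LLC blood and LLC tumor (x axis); points are libraries and black bars the mean ± SD of 3. Clec4d, Clec4n, Clec4e and Clec5a are far higher in all tumor libraries, Clec4a1, Clec4a3, Clec10a and Clec12a are lower there, and LLC tumor 1 (the left point of its group) lies above the others for every gene except Clec10a.

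Among the inhibitory receptors, Clec12a fell at both steps. It was at 356, 377 and 439 CPM in healthy blood, at 228, 178 and 189.9 CPM in LLC blood and at 50.8, 38.4 and 35.8 CPM in LLC tumor, with no overlap between any of the groups. The log2 fold change was -1.0 ± 0.20 SE from healthy to LLC blood (adjusted p = 0.00658) and -2.03 ± 0.21 SE from LLC blood to tumor (adjusted p = 2.89e-05). Over both steps Clec12a was 8.17-fold lower in the tumor than in healthy blood (adjusted p = 2.52e-06). It was called in all 3 comparisons under every alternative run.

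Clec4a2, the other receptor with an inhibitory motif, went down and up again. It was at 151, 149 and 161 CPM in healthy blood, at 109.9, 101 and 113 CPM in LLC blood and at 193, 125 and 129.9 CPM in tumor, so tumor and healthy blood overlapped. The step from LLC blood to tumor was called (log2 fold change 0.70 ± 0.22 SE, adjusted p = 0.0178), and the step in blood was not (-0.54 ± 0.21 SE, adjusted p = 0.102). Without LLC blood 2 the tumor step was 0.61 and no longer called (adjusted p = 0.0673). It was 0.37 without LLC tumor 1, 0.41 under limma-voom with sample quality weights and 0.47 with library totals as the only scaling, and called in these 3 settings. Counts of Clec4a2 were not whole in any of the 9 libraries, the mark of reads split between genes, so its level depends on how shared reads were split.

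Clec4a1 and Clec4a3 encode the close relatives DCIR4 and DCIR3. Clec4a1 was at 479.7, 473 and 458 CPM in healthy blood, at 400.5, 352 and 365 CPM in LLC blood and at 179, 134 and 167 CPM in tumor. Clec4a3 was at 459, 478 and 452 CPM in healthy blood, at 387, 371 and 390.0 CPM in LLC blood and at 142, 96.7 and 115 CPM in tumor. Both descended from group to group without overlap.

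The step from LLC blood to tumor was called for both, at -1.0 ± 0.16 SE for Clec4a1 (adjusted p = 0.000518) and -1.47 ± 0.19 SE for Clec4a3 (adjusted p = 0.000114). The step in blood was called for neither (-0.36 ± 0.16 SE, adjusted p = 0.131, and -0.30 ± 0.18 SE, adjusted p = 0.262). The ratio of Clec4a3 to Clec4a1 counts was 0.956 to 1.07 in the 6 blood libraries and 0.688 to 0.791 in the tumor. Split counts occurred for Clec4a3 in 4 libraries and for Clec4a1 in 0.

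Clec10a was at 54.0, 51.1 and 53.3 CPM in healthy blood, at 43.6, 36.2 and 40.8 CPM in LLC blood and at 9.12, 13.1 and 12.0 CPM in tumor. It was called lower in LLC blood (log2 fold change -0.42 ± 0.09 SE, adjusted p = 0.011) and in tumor against LLC blood (-1.63 ± 0.10 SE, adjusted p = 1.35e-06). The call in blood was lost with library totals as the only scaling (-0.39) and without LLC blood 2 (-0.34, adjusted p = 0.0554). Counts of Clec10a were likewise split with other genes in every one of the 9 libraries, and its paralog Mgl2 stood at 1.51 ± 0.186 CPM (SD, n = 3) in healthy blood, 0.457 ± 0.109 CPM in LLC blood and 2.46 ± 0.996 CPM in tumor. Mgl2 was thus called lower in blood (-1.76, adjusted p = 0.00948) and, unlike Clec10a, higher in tumor against LLC blood (2.60, adjusted p = 0.000247). Counts of Mgl2 were also split in all 9 libraries, so at these low levels its changes depend on how shared reads were split.

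**Figure D2:**
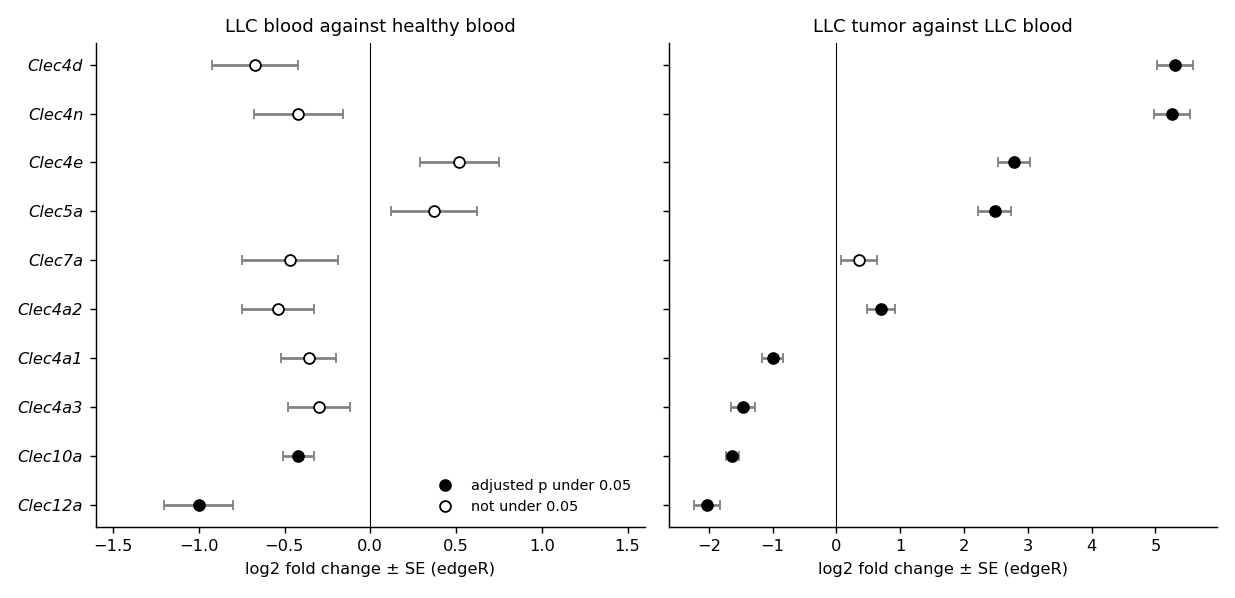
Log2 fold change ± SE (x axis) of each gene (y axis) for LLC blood against healthy blood (left) and LLC tumor against LLC blood (right); filled points have an adjusted p under 0.05, and the x axes differ in range. The changes in blood lie between -1.0 and 0.52, and those in the tumor between -2.03 and 5.30.

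The counts read as follows against all tested genes. In LLC tumor against LLC blood 5 receptors were called higher (background 29.6%) and 4 lower (31.7%). Changes of at least 2-fold were called for 4 higher receptors (background 17.3%) and 3 lower ones (11.4%), with Clec4a1 just short. The groups did not overlap for 9 of the 10 (background 68.3%), 5 on the higher side (23.5%) and 4 on the lower side (44.8%).

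In LLC tumor against healthy blood 8 of the 10 were called, against 66.5% of the tested genes. These were 4 higher (background 33.5%) and 4 lower (33.0%), all of at least 2-fold, where the background was 19.7% higher and 12.7% lower. The same 8 did not overlap between the groups (background 70.6%), 4 on the higher side (26.9%) and 4 on the lower (43.7%). Clec4d, Clec4n, Clec4e and Clec5a were 24.8-, 28.7-, 9.87- and 7.23-fold higher there.

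In LLC blood against healthy blood 0 receptors were called higher (background 14.0%) and 2 lower (9.61%). At least 2-fold, 0 were higher (background 3.24%) and 1, Clec12a, was lower (2.99%). The median log2 fold change of the 10 was -0.42, against -0.01 for all tested genes. In CPM, all 10 had levels that did not overlap between the groups (background 51.3%), 8 lower (23.8%) and 2 higher (27.6%) in LLC blood. For Clec4e the gap was only 75.4 against 75.2 CPM.

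The number of receptors called in blood moved with the libraries and the method. With only the 6 blood libraries in the fit 10 were called (background 42.3%), with the replicate number as a block in these 6 it was 9 (background 41.7%), and without LLC tumor 1 it was 10 (background 39.4%). Limma-voom with sample quality weights called 9 (background 47.7%) and DESeq2 4 (background 28.0%). Without LLC blood 2 the count was 1, Clec12a (background 11.7%).

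The 4 genes that were highest in tumor relative to blood (a grouping made after seeing the values) held 5.74% to 7.13% of the counts of all 10 genes in healthy blood, 8.24% to 11.9% in LLC blood and 63.6% to 65.3% in LLC tumor. The tumor libraries agreed in this share although their summed levels of the 10 genes were 3319, 2140.2 and 2294 CPM. In healthy blood that sum was 2155 to 2330.3 CPM and in LLC blood 1641 to 1755 CPM.

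Along the first stretch of chromosome 6 the genes that fell and those that rose lay at opposite ends. At one end Clec4a1, Clec4a3 and their unlisted neighbours Clec4a4 and Clec4b1 were all called lower in tumor than in LLC blood. Clec4a4 was at 6.59 ± 0.339 CPM in healthy blood, 5.02 ± 0.706 in LLC blood and 1.26 ± 0.689 in tumor (log2 fold change -1.77 ± 0.38 SE, adjusted p = 0.00263 against LLC blood). Clec4b1, which encodes the activating receptor DCAR, fell at both steps, from 7.64 ± 0.257 to 1.95 ± 0.771 and 0.443 ± 0.0940 CPM. Clec4a2 in the middle rose slightly, and Clec4n, Clec4d and Clec4e at the far end, about 308 kb and more from the start of Clec4a1, rose most. Clec4b2, between Clec4a2 and Clec4n, was too low to test, and Clec4a4 and Clec4b1 had shared counts in all 9 libraries. No test was made of position.

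The second stretch gave a mixed picture between Clec12a and Clec7a. Clec1a rose from 1.05 CPM in LLC blood to 14.0 CPM in tumor (log2 fold change 3.85 ± 0.63 SE, adjusted p = 0.000573), at 3.43, 19.6 and 18.9 CPM in the single libraries, low in tumor 1 where fibroblast markers were also lowest. Clec9a, a marker of cross-presenting dendritic cells, was at 0.903, 4.17 and 3.37 CPM in tumor and called higher than in LLC blood (1.14 ± 0.41 SE, adjusted p = 0.0352). Clec1b, known from platelets, was at 0.779 CPM in LLC blood and 0.176 CPM in tumor (-1.92 ± 0.51 SE, adjusted p = 0.00908), and Clec12b was too low to test. Of 5 platelet markers, Pf4 and Ppbp were called higher in the same comparison (means of 100.1 and 89.4 CPM in tumor), Itga2b and Gp1ba were not called, and Gp9 was too low to test.

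**Figure D3:**
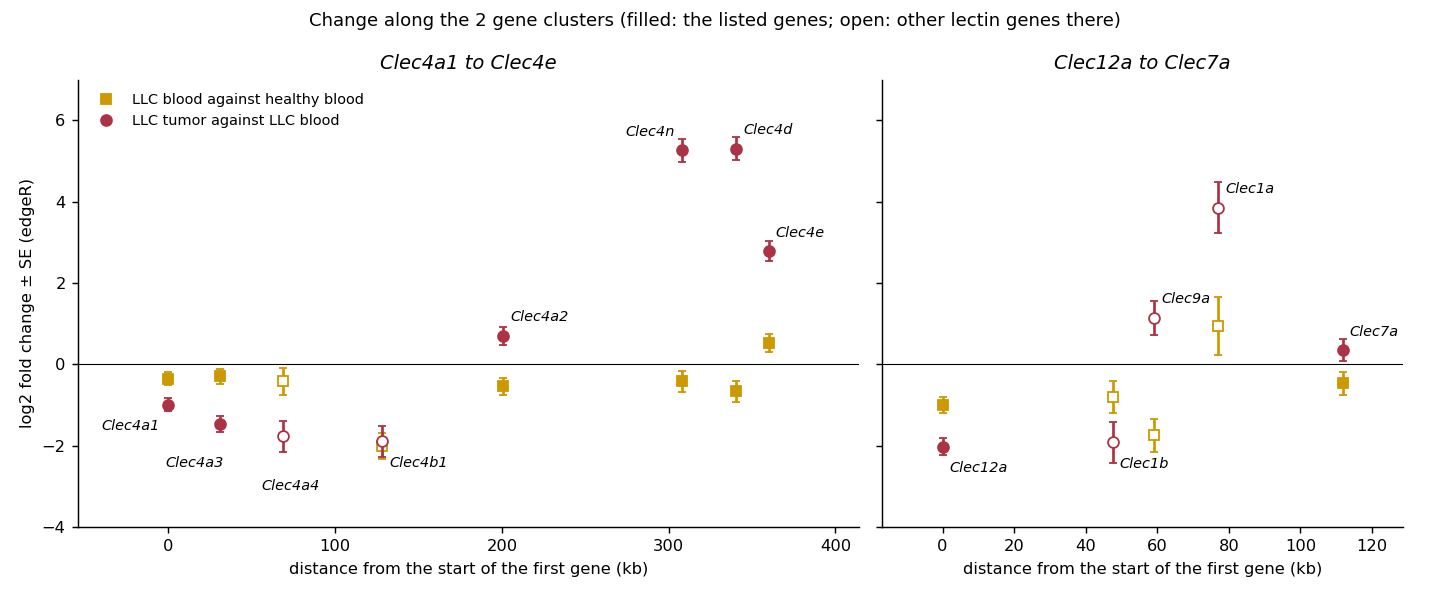
Log2 fold change ± SE (y axis) against the distance in kb from the start of the first gene (x axis) for the tested genes of both chromosome 6 stretches; squares are LLC blood against healthy blood, circles LLC tumor against LLC blood, filled symbols the 10 genes and open symbols other lectin genes there. In the left panel the tumor changes run from -1.0 at Clec4a1 to 5.26 and 5.30 at Clec4n and Clec4d.

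Genes with the most similar course were sought among 6894 other genes averaging 20 CPM or more, by the root mean square distance between log2 levels centred on each gene's mean over the 9 libraries. The pair nearest to Clec4d was Cd9 (0.27) and Bnip3 (0.28), and to Clec4n it was Bnip3 (0.23) and Rgcc (0.26). Bnip3, which encodes a mitochondrial protein and is known to respond to low oxygen, was at 21.2, 18.7 and 437 CPM in the means of healthy blood, LLC blood and tumor. Clec5a was closest to the glycolysis genes Pgk1 (0.09) and Ldha (0.15), and Clec4e to Ifitm1 (0.19) and Ecm1 (0.19).

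Clec7a was closest to Fcer1g (0.11), the adaptor gene named above for Clec4e, Clec4d and Clec4n, and to Sap30 (0.12). Clec4a1 lay nearest Mndal (0.04) and BC028528 (0.09), Clec4a3 nearest Gngt2 (0.07) and Tmem50b (0.08), and Clec4a2 nearest Sec61g (0.09) and Pgap2 (0.11). Clec10a was closest to Limd2 (0.08) and Mob3b (0.10), and Clec12a to Rnase6 (0.19) and Evi2b (0.23). Among the 10 themselves the shortest distances were Clec4a2 to Clec7a (0.21), Clec4d to Clec4n (0.22), Clec4a1 to Clec4a3 (0.23) and Clec4e to Clec5a (0.27). These distances describe 9 libraries in 3 groups and carry no test.

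Neither adaptor gene was called higher in tumor against LLC blood, unlike Clec4d, Clec4n, Clec4e and Clec5a. Fcer1g was at 948, 944 and 987 CPM in healthy blood, 747, 665 and 675 CPM in LLC blood and 914, 592 and 656 CPM in tumor, and its tumor step of 0.29 on the log2 scale missed the threshold (adjusted p = 0.265). Tyrobp was at 1513 CPM in the mean of healthy blood, 1079 in LLC blood and 750.3 in tumor, also without a call at that step (-0.29, adjusted p = 0.235). Syk was at 698 CPM in LLC blood and 481 CPM in tumor (-0.32, adjusted p = 0.0802). Fcer1g, Tyrobp and Syk, and Card9 in the next paragraph, are named for their place in the pathway, after their values were seen.

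Of 27 adaptor and kinase genes, all tested, 6 were called higher (29.6% of all tested genes) and 13 lower (31.7% of all) in tumor against LLC blood. Their median log2 fold change was -0.36 (all tested genes -0.03). Named by size among the abundant ones were Pik3cd (-1.36 ± 0.10 SE, adjusted p = 4.29e-06), Nfatc1 (-1.32 ± 0.13 SE, adjusted p = 2.06e-05), Plcg2 (-1.22 ± 0.10 SE, adjusted p = 8e-06) and Fgr (-1.02 ± 0.12 SE, adjusted p = 6.34e-05), which encode a lipid kinase subunit, a calcium-regulated transcription factor, a phospholipase and a Src family kinase. Card9 fell from 201 to 96.4 CPM (-0.87, adjusted p = 4.45e-06). In blood 3 were called higher (14.0% of all tested genes) and 3 lower (9.61% of all), with a median of 0.08. They were led by Rel, an NF-κB subunit, which rose from 19.1, 17.2 and 15.6 CPM to 55.6, 54.9 and 62.0 CPM (1.71 ± 0.24 SE on the log2 scale, adjusted p = 0.00155). Card9 was also called higher in blood (0.27, adjusted p = 0.0156), but not with upper-quartile factors or with library totals only. Over the alternatives the number called in blood ran from 1 to 16.

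Of 10 inhibitory phosphatase, adaptor and ligase genes, 2 were called higher (background 29.6%) and 7 lower (31.7%) in tumor against LLC blood (median -0.57). Ptpn6, which encodes SHP-1, fell from 819, 861 and 806 CPM in LLC blood to 297, 283 and 305 CPM in tumor (log2 fold change -1.28 ± 0.11 SE, adjusted p = 9.62e-06). Dok2, an adaptor that dampens tyrosine kinase signals, went the other way, from 10.6, 13.6 and 12.6 CPM to 202, 173 and 168 CPM (4.09 ± 0.20 SE, adjusted p = 4.08e-07), while its relative Dok3 fell (-1.0 ± 0.09 SE, adjusted p = 1.57e-05). In blood 2 were called higher (background 14.0%) and 3 lower (9.61%). Cbl, a ubiquitin ligase, had the largest change there, from 35.6, 39.1 and 30.1 CPM to 261, 323 and 313 CPM (3.07 ± 0.12 SE, adjusted p = 6.28e-06).

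Genes known to be induced by Syk and Card9 signaling were higher in the tumor. All 15 tested of the 19 listed were called higher against LLC blood (background 29.6%), with a median of 5.78, and 0 lower (background 31.7%). Ptgs2, the inducible cyclooxygenase, was at 2.48 CPM in LLC blood and 1746 CPM in tumor in the mean (9.89 ± 0.70 SE, adjusted p = 3.1e-06), and the chemokine gene Ccl4 at 1.45 and 76.1 CPM (6.04 ± 0.55 SE, adjusted p = 1.51e-05). These genes also answer to other stimuli, and 14 of 15 dissociation stress genes were called higher in the same comparison, with Egr1 on both lists. The dissociation stress genes summed to 12629 to 14969.8 CPM in tumor, 1611 to 4436 in LLC blood and 4475 to 6902 in healthy blood. The part of tissue handling in these values was not tested. In LLC blood against healthy blood 4 of the 15 genes induced by Syk and Card9 were called lower (background 9.61%) and 0 higher (14.0%), with a median of -1.14.

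Among 5 genes listed for reported endogenous ligands, Vim rose from 3479 to 6386 CPM in the tumor (1.09 ± 0.18 SE, adjusted p = 0.000493). Sap130 rose by 0.41 ± 0.09 SE (adjusted p = 0.00438) and Anxa5 by 0.32 ± 0.10 SE (adjusted p = 0.0209). The symbol Sap130 stands for a Sin3A-associated protein, not for the splicing protein SAP130 that Clec4e binds. The gene of that ligand was not on the list, so the Sap130 value says nothing about it. Anxa1 fell by 0.59 ± 0.11 SE (adjusted p = 0.000996), after a rise in blood of 0.54 ± 0.11 SE (adjusted p = 0.00669). With library totals as the only scaling, under which the median of all genes was -0.23 and not -0.03, Sap130 (0.22) and Anxa5 (0.12) were no longer called, and Anxa5 also lost the call with no filter on low counts (0.26), without LLC blood 2 (0.25) and without LLC blood 3 (0.31).

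Of 38 other C-type lectin receptor genes 28 were tested. In tumor against LLC blood 11 were called higher (background 29.6%) and 10 lower (31.7%), with a median of -0.19. Mrc1, the macrophage mannose receptor, had the largest change, from 8.42, 6.29 and 6.13 CPM to 396, 496 and 282 CPM (log2 fold change 6.04 ± 0.29 SE, adjusted p = 3.68e-07). Clec2i, a ligand of NK cell receptors (-2.90 ± 0.21 SE, adjusted p = 3.31e-06), and Cd302 (-1.66 ± 0.10 SE, adjusted p = 1.12e-06) fell.

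In LLC blood against healthy blood 1 of these 28 was called higher (background 14.0%) and 14 lower (9.61%), with a median of -0.82. The one that rose was Cd93, from 197, 162 and 152 CPM to 333, 492 and 499 CPM (1.35 ± 0.18 SE, adjusted p = 0.001). Klrk1, the NK cell receptor NKG2D (-1.91 ± 0.44 SE, adjusted p = 0.0132), and Clec2d (-0.95 ± 0.14 SE, adjusted p = 0.00155) fell, and all 8 listed T and NK cell markers were called lower in the same comparison, with sums of 105 to 277 CPM in healthy blood, 15.7 to 27.5 in LLC blood and 1.12 to 4.79 in tumor. Klrb1c is on both lists.

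**Figure D4:**
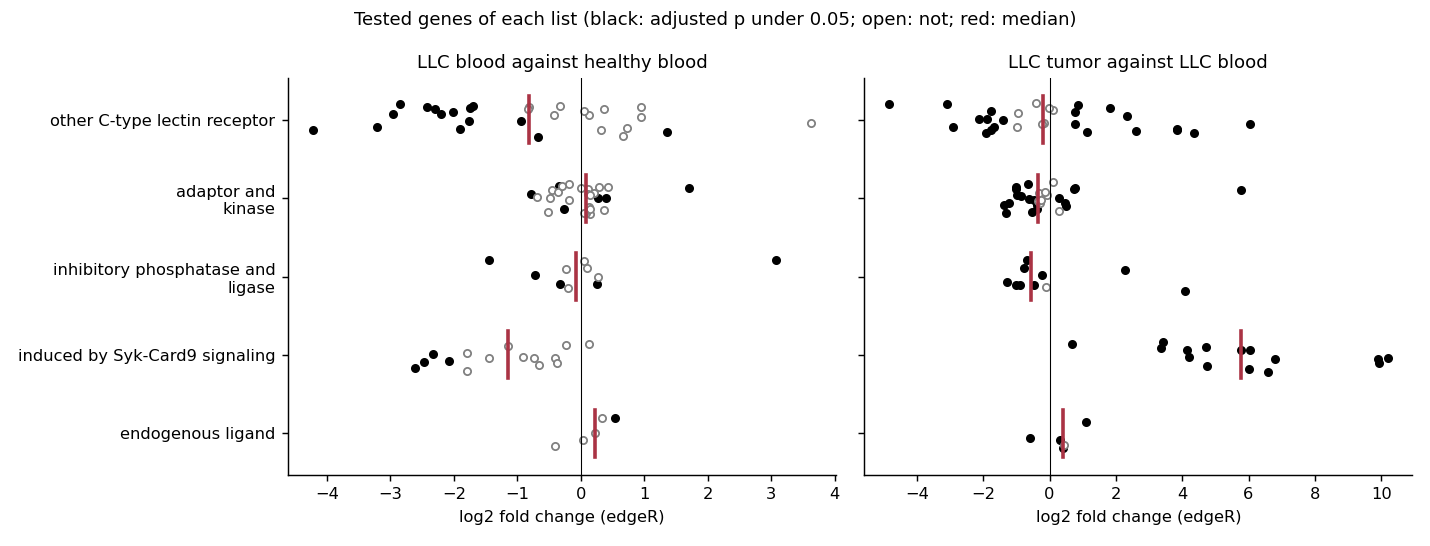
Log2 fold change (x axis) of each tested gene of 5 lists (y axis) for LLC blood against healthy blood (left) and LLC tumor against LLC blood (right); black points have an adjusted p under 0.05, open points do not, red bars are medians, and vertical scatter within a list has no meaning. The induced genes lie to the right in the tumor (median 5.78), and most adaptor, kinase and phosphatase genes lie near or left of 0.

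Several of these receptors are shared with other cells, and in bulk RNA fewer cells of a type and less RNA per cell cannot be told apart. Neutrophils are also known to express Clec4d and Clec4e. Neutrophil markers (10 of 11 in the table, none at 0 in all tumor or all blood libraries; Ly6g was not used here) summed to 517 to 582 CPM in healthy blood, 511 to 579 in LLC blood and 207 to 244 in LLC tumor, and 0 were called higher and 6 lower in tumor against LLC blood. Most of that sum was Cd177 and Mmp8, at means of 59.8 and 152 CPM in tumor. In LLC blood against healthy blood 4 were called higher (Ltf, Elane, Mpo and Mmp8) and 1 lower (Cd177), which the near-equal sums do not show. Ltf was at 0.574, 22.9 and 9.37 CPM in the LLC blood libraries. Camp, Ngp, Ltf, Elane and Mpo were below 1 CPM in the tumor mean, each listed at 0 or under 2 CPM in the single libraries. Retnlg (0.678 and 2.36 CPM in the means of LLC blood and tumor), Cxcr2 (4.83 and 6.52 CPM) and Stfa2l1 (0.0710 and 0.672 CPM) had higher means in tumor and were not called. The part of neutrophil RNA in the receptor results was not tested.

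Macrophage markers (9 of 9, Mrc1 among them) summed to 1525 to 1714 CPM in healthy blood, 926 to 966 in LLC blood and 1943 to 2954 in LLC tumor. Apoe alone had means of 1026, 330.1 and 716 CPM in these groups, so the sum hides larger changes of other markers. C1qa, C1qb, C1qc and Mertk had means of 1.76, 5.03, 2.06 and 0.900 CPM in LLC blood. In tumor their means were 191, 237, 174 and 20.6 CPM. From LLC blood to tumor the macrophage markers went the way of the receptors that rose, with 7 called higher and 1, Adgre1, lower. From healthy to LLC blood 0 were called higher and 5 lower. At that step Clec4d and Clec4n had lower means and Clec4e and Clec5a higher ones, without a call. Dendritic cell markers (9 of 9, Clec9a among them, none at 0 in all tumor or all blood libraries) moved with Clec10a and Clec12a: they summed to 169 to 179.8 CPM in healthy blood, 85.0 to 119 in LLC blood and 14.7 to 21.9 in LLC tumor, with 6 of 8 tested called lower at the first step and 4 lower and 1 higher at the second. Fibroblast markers summed to 2.95 to 15 CPM in healthy blood and, in tumor, to 853 to 3689 CPM, epithelial tumor cell markers to 6.87 to 8.50 and 10.6 to 43.7 CPM. Among the tumor libraries both sums were lowest in tumor 1. That library was the highest of them for every receptor gene except Clec10a, also for Clec4a1, Clec4a3 and Clec12a, which fell. The part of macrophage-like, dendritic or stromal RNA in the receptor results was not tested.

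**Figure D5:**
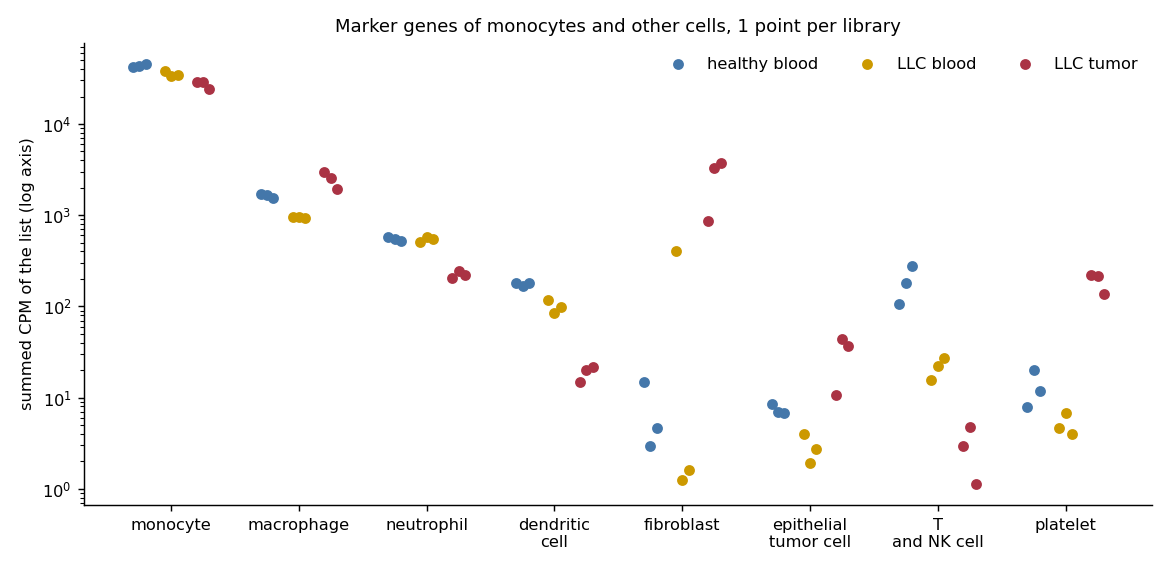
Summed CPM (y axis, log scale) of 8 marker lists (x axis) in each library of healthy blood, LLC blood and LLC tumor. Neutrophil, dendritic cell, T and NK cell sums are lower in LLC tumor than in either blood group, and macrophage and fibroblast sums are higher there.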

How the data were processed

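The authors deposited expected counts (estimated read counts, not normalized) for 24411 gene symbols in 9 libraries; 7.43% to 8.29% of the values per library were not whole within 0.01. A second deposited table holds CPM values for 10693 of the genes, scaled to their own sum. It was used only for an alternative: its values were whole multiples of 1 read in 100% of cases within 0.01 and equalled the rounded counts in 100%. It holds 9 of the 10 receptor genes, without Clec7a. The submitters' processing notes name mm10, STAR 2.6.1d and Salmon 1.9.0, with no role. In the tables the blood columns are marked BM, which the sources used here do not explain; sample titles, which name blood, were followed. The series holds 31 samples, and the other 22 (other assays) were not analysed here.

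Counts were rounded. edgeR 4.0.16 (R 4.3.3) fitted all 9 libraries (TMM, filterByExpr, quasi-likelihood, group as the only term); SE is the absolute log2 fold change over the square root of F. CPM use all entries. Alternatives were other scalings, DESeq2 1.42.0, limma-voom (limma 3.58.1), filters, thresholds, left-out libraries and the replicate number as a block. The steps were tested on simulated data. All 10 receptors were named; from each list at most the 4 called genes with the largest change and a mean of at least 20 CPM; per receptor the 2 genes nearest in course. Members and lists were chosen with earlier results of these data known. Comparisons share groups: LLC blood enters both steps, so their values are given side by side. A planned count of tyrosine motifs in the receptor proteins was not run. One further gene that the naming rule gives is not reported here.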

Additional observations from a re-analysis of the deposited data

How the results depend on the processing

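The number of receptors called in the tumor comparisons stayed within 1.5 times of its value under every alternative. In LLC blood against healthy blood it was 2 and moved to 5 with upper-quartile factors, 4 with library totals only, 4 with DESeq2, 9 with limma-voom and sample quality weights, 10 with only the 6 libraries compared, 9 with the replicate block in those 6, 1 at an adjusted p under 0.01 and 1 at 2-fold or more; leaving out 1 library gave 1 (without LLC blood 2) to 10 (without LLC tumor 1). Over all 12337 tested genes that comparison called 2917. It called 3217 with upper-quartile factors, 2788 with library totals only, 3457 with DESeq2 and 5884 with limma-voom. The stricter p gave 1386 and the 2-fold threshold 769. With the 6 libraries, where 11563 genes were tested, it called 4889, and 4820 with the replicate block in them. Leaving out 1 library gave 1494 to 5064. At 2-fold, tumor against LLC blood called 3538 (7566 without that threshold) and tumor against healthy blood 3989 (8208). Stricter thresholds lower a count by construction; the cause of the other moves was not tested. The labels do not say whether replicate numbers pair the samples, and correlations over 3 libraries a group cannot decide it. Same-numbered deviations correlated at 0.28, 0.19 and 0.07 between the blood groups and at -0.11, 0.09 and -0.15 between LLC blood and tumor. Between healthy blood and tumor they correlated at 0.06, 0.05 and 0.08, and there alone every sample correlated best with its own number. With the replicate block in all 9 libraries 2 receptors were called in blood and 9 in tumor against LLC blood. Over all 12337 tested genes that setting called 2788 in blood and 7455 in tumor against LLC blood. The share of calls that were higher was 59.4% in blood (46.3% with upper-quartile factors) and 48.3% in tumor against LLC blood (36.3% with library totals only). In tumor against healthy blood it was 50.4% (40.6% with library totals only).

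Reversals concerned 2 genes whose main values were near 0 or uncalled. Clec4a2 in tumor against healthy blood was 0.17 and became -0.04 with library totals only, -0.13 with limma-voom and -0.22 without LLC tumor 1 (adjusted p = 0.0231, called), with 0.34 without LLC tumor 2 at the other end. Clec7a in tumor against LLC blood became -0.06 with limma-voom and -0.13 without LLC tumor 1 (0.57 without LLC tumor 2); against healthy blood it became 0.10 without LLC tumor 2 and 0.06 without LLC tumor 3 (-0.65 without LLC tumor 1). Of 1467 values of single named genes under the alternatives, 1344 kept direction and side of the threshold, 75 lost the call, 41 gained one and 7 changed direction. The whole reads recovered from the CPM table (chosen after seeing the data) called 2 of 9 receptors in blood and 9 of 9 in tumor against LLC blood. Of the 10520 genes tested in that setting, 2584 were called in blood and 6792 in tumor against LLC blood.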
